A study of Mus musculus with 16 samples.

Results

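The expression of 10 genes of the hyaluronan matrix was followed through RNA sequencing of mouse left ventricles: the synthases Has1, Has2 and Has3, the hyaluronidases Hyal1 and Hyal2, the receptors Cd44 and Hmmr, and the binding proteins Vcan, Tnfaip6 and Hapln1. They were chosen by name as the genes that make, cut and bind this polymer, with earlier results of these data known, among them the Cd44 difference between the unoperated hearts, which is therefore given without a test. All 10 were among the 55492 genes of the deposited table. Each passed the filter on low values, a mean of at least 10 normalized counts over the 16 libraries, which 20576 genes passed.

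The 16 mice were C57BL/6 males aged 8 to 12 weeks, and each gave 1 library. Both genotypes derive from the same floxed PKM2 allele. PKM2fl/fl mice were the controls without Cre, and PKM2-/- mice lacked PKM2 in all cells, because exon 10 of Pkm had been excised in the germline by a CMV-driven Cre that was then bred out. Left ventricles were taken from unoperated mice (baseline, 2 mice per genotype) or 3 days after surgery, either permanent ligation of the left anterior descending artery (MI, 3 per genotype) or the same operation without ligation (sham, 3 per genotype).

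Hyaluronan is a long, unsulphated sugar chain that HAS enzymes build at the plasma membrane from UDP-glucuronic acid and UDP-N-acetylglucosamine and extrude directly into the matrix. Hyaluronidases and the cell surface proteins CEMIP and CEMIP2 shorten the chain, and receptors such as CD44 hold it at the cell surface or carry it into the cell. In the injured heart hyaluronan is known as part of the early provisional matrix, where versican, link proteins and TSG-6 (the product of Tnfaip6) organize the chains into larger assemblies.

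For 4 of the members that rose after MI in both genotypes, the 250 bases before the RefSeq start site are shown, so that the letters upstream of genes that moved together can be compared. All lie on GRCm38.p6, and each is written from 5′ to 3′ on the strand of its gene. Capitals mark matches, on either strand, to CCAAT (a motif bound by NF-Y), TTTGAA (the cell cycle homology region, CHR), TGANTCA (AP-1), TGACGTCA (CRE), TTCNNNGAA (STAT) or GGG and TTTCC with any pair of bases between them (NF-kB), and no matches overlapped. The windows were chr11:40733438-40733687 (minus strand) for Hmmr, chr2:52037863-52038112 (plus strand) for Tnfaip6, chr17:17855189-17855438 (minus strand) for Has1 and chr13:89742513-89742762 (minus strand) for Vcan.
Hmmr: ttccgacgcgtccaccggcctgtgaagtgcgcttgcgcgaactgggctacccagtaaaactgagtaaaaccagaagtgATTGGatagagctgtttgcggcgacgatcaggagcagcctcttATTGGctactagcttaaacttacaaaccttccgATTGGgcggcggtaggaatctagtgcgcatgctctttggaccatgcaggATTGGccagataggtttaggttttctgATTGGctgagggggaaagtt
Tnfaip6: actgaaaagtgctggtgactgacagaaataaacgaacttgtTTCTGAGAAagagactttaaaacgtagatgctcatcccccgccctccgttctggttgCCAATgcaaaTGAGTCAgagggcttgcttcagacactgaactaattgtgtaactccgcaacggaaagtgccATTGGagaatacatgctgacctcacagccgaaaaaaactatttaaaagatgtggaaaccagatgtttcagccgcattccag
Has1: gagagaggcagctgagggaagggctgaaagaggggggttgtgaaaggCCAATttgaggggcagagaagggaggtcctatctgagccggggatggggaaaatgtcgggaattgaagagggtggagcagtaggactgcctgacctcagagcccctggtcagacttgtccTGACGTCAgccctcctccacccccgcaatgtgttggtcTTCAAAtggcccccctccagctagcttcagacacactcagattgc
Vcan: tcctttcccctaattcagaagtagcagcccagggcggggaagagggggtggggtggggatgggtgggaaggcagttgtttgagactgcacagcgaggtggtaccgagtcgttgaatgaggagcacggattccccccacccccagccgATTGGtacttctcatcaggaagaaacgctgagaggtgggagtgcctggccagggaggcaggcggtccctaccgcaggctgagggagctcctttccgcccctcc

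The Hmmr window held 5 CCAAT matches, all on the strand opposite to the gene, at -172, -129, -96, -47 and -20 from the start site, and a CHR match lay just downstream of the start, at 8. Of 32841 RefSeq windows of the same length (250 bases before the start and 50 after), 37.4% held at least 1 CCAAT match and 0.271% held 5 or more. The Tnfaip6 window had an AP-1 match at -142, a STAT match at -209 and CCAAT matches at -152 and -81. AP-1 matches occurred in 7.81% and STAT matches in 8.30% of all windows. Has1 had a CRE match at -83 (1.79% of windows), a CHR match at -45 (17.9%) and a CCAAT match at -203, and Vcan had a single CCAAT match at -103. Of the 8 members with a window in the table, none had an NF-kB match, which 1.63% of all windows held. These matches describe letters and were not tested as binding sites. Has2 and Has3 are named only.

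Among the members, 2 pairs are neighbours in the genome. Hyal2 (chr9:107567873-107572778) and Hyal1 (chr9:107576950-107581699) are separated by 4171 bases, and Hapln1 (chr13:89540529-89611832) and Vcan (chr13:89655309-89743027) by 43476 bases, with 0 RefSeq genes between the members of either pair. After MI, Vcan rose more than 4-fold in both genotypes, whereas Hapln1 passed the test in neither genotype.

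The libraries held between 20623769 and 71855101 reads. Residual ribosomal RNA differed widely among them: 6 rRNA-related loci took 15.8% to 46.1% of reads, and one of them, CT010467.1, took 0.111% to 25.1%. Pkm, the targeted gene, was not called between the genotypes (log2 differences 0.42, 0.59 and 0.21 at baseline, after sham surgery and after MI), but its count sums the transcripts with exon 9 and those with exon 10, so that it does not check the deletion. Cardiomyocyte markers were abundant at baseline (6 of 6 markers detected, summed counts of 871197 to 1046410) and lower after MI. Their sum was 168182 to 406391 in PKM2fl/fl MI against 858539 to 1005030 in PKM2fl/fl sham hearts, with 5 of 6 markers called lower, and 178184 to 243677 against 824657 to 1016120 in PKM2-/- hearts, with 6 of 6 called lower. In the same comparisons 4 and 5 of 6 macrophage markers were called higher, 2 and 2 of 6 fibroblast markers, 2 and 2 of 5 neutrophil markers tested, and 0 of 5 endothelial markers in either direction. Mesothelial markers were called higher in 0 of 6 in PKM2fl/fl and 5 of 6 in PKM2-/- hearts, but their sums overlapped between the genotypes. The sums were 284 to 431 in PKM2fl/fl sham and 269 to 707 in PKM2-/- sham hearts. After MI they were 324 to 1177 in PKM2fl/fl and 458 to 765 in PKM2-/- hearts. Between the genotypes 0 of 6 mesothelial markers were called in any condition. The part of these shifts in the results for the members was not tested. In these bulk samples, a change in the number of cells of a type and a change in the RNA per cell cannot be told apart.

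At 3 days after MI, Has1, Has2, Vcan, Hmmr and Tnfaip6 were higher than after sham surgery in both genotypes, and Has3, Hyal1, Hyal2 and Hapln1 passed the test in neither. In PKM2fl/fl hearts 6 of the 10 members were called higher (Has1, Has2, Cd44, Vcan, Hmmr and Tnfaip6) and 0 lower, where a call means a Benjamini-Hochberg adjusted p under 0.05 over all genes and at least a 2-fold change in limma. Over all 20576 genes, 12.4% were called higher and 11.1% lower. In PKM2-/- hearts 5 of 10 members were called higher (the same genes without Cd44) and 0 lower, against 14.5% and 14.3% of all genes. The median log2 difference of the 10 members was 1.74 in PKM2fl/fl and 0.65 in PKM2-/- hearts, beside 0.00 and 0.01 over all genes tested. Without Cd44, whose counts follow residual rRNA, the medians of the other 9 members were 1.67 and 1.03. Of all genes, 50.1% in PKM2fl/fl and 56.8% in PKM2-/- hearts had an adjusted p under 0.05. How many of all genes separate the treatments without overlap was not counted, so the separations given below are a description only.

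**Figure D1:**
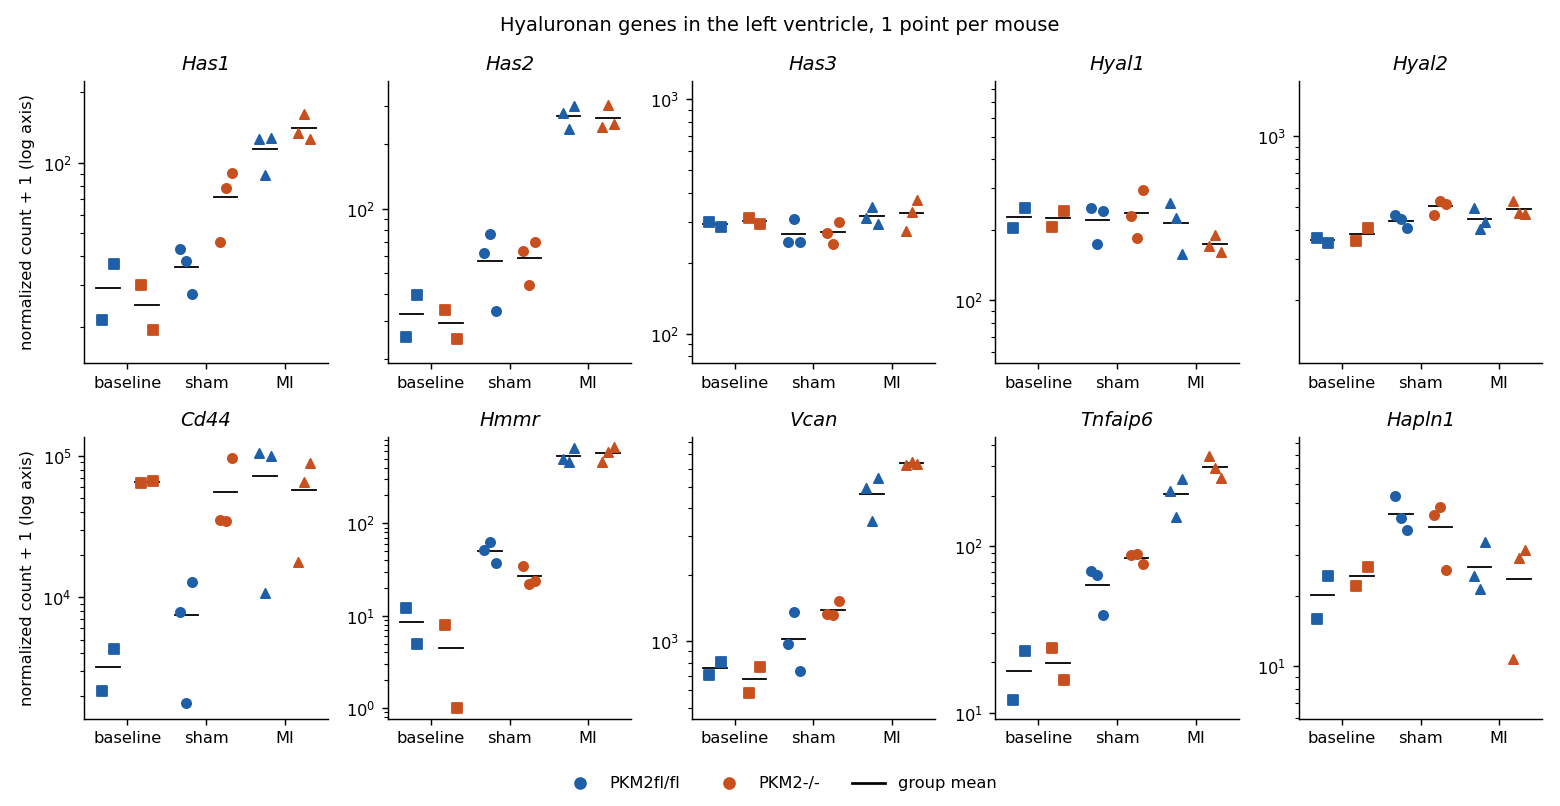
Levels of the 10 members in every library: the vertical axis of each panel is the normalized count plus 1 on a log axis, blue is PKM2fl/fl, orange is PKM2-/-, squares, circles and triangles are baseline, sham and MI hearts, and bars are group means. In Has2, Hmmr, Vcan and Tnfaip6 all 6 MI hearts lie above all 10 other hearts, whereas Has3, Hyal1 and Hyal2 stay within a narrow band and Cd44 is spread over both genotypes. How many of all genes separate in this way was not counted.

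Has2, the synthase linked to long hyaluronan chains and to heart development, separated the infarcted hearts completely. Its normalized counts were 61.1, 74.9 and 32.4 in PKM2fl/fl sham and 278, 235 and 301 in PKM2fl/fl MI hearts. They were 62.7, 43.1 and 69.0 in PKM2-/- sham and 240.0, 302 and 247 in PKM2-/- MI hearts. No sham heart of either genotype reached the lowest MI heart. The log2 difference was 2.33 (standard error 0.29, limma adjusted p = 1.25e-05) in PKM2fl/fl and 2.17 (standard error 0.29, adjusted p = 1.44e-05) in PKM2-/- hearts, or 5.02-fold and 4.51-fold. Reads of Has2 and of its antisense gene Has2os cannot be told apart here, because the strand setting of the counting is not given in the sources used here. Has2os went from 42.9 ± 11.7 in sham to 85.6 ± 5.04 in MI hearts of PKM2fl/fl mice (SD, n = 3 each), a log2 difference of 1.01 (limma adjusted p = 0.00196), and from 48.6 ± 1.88 to 85.3 ± 24.0 in PKM2-/- mice, which stayed under 2-fold (0.76, adjusted p = 0.0107).

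Has1, a synthase that is usually weakly expressed, also rose after MI, with a wider range among the PKM2-/- sham hearts. PKM2fl/fl hearts had 41.7, 37.0 and 26.5 normalized counts after sham surgery and 125, 87.9 and 126 after MI, without overlap. PKM2-/- hearts had 45.0, 77.1 and 89.5 after sham surgery and 134, 161 and 126 after MI, also without overlap. The log2 difference was 1.67 (standard error 0.30, limma adjusted p = 3.28e-04) in PKM2fl/fl and 1.03 (standard error 0.30, adjusted p = 0.00923) in PKM2-/- hearts. The second value sits on the 2-fold line: it was 0.97 in edgeR and 0.98 in DESeq2, 0.74 without PKM2-/- sham replicate 1 (adjusted p = 0.0550) and 0.93 without PKM2-/- MI replicate 2, and in these 4 settings the call was lost.

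Has3, the synthase linked to shorter chains, showed no called difference. Its counts ran from 240.3 to 371 over all 16 hearts, and sham and MI hearts overlapped in both genotypes. The log2 difference after MI was 0.25 in PKM2fl/fl (95% interval -0.04 to 0.55, limma adjusted p = 0.144) and 0.26 in PKM2-/- hearts (-0.03 to 0.56, adjusted p = 0.117). The upper bounds of both intervals lie under a 2-fold change.

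Since levels of different genes compare only per length, the synthases were also set against each other as normalized counts per kilobase of the canonical transcript (2095 bases for Has1, 4982 for Has2 and 4158 for Has3 in GENCODE M39). At baseline Has3 made up 78.3% ± 6.86 of the summed synthase level in controls and 81.2% ± 3.80 in knockouts (SD over 2 hearts each). After sham surgery it was 69.9% ± 5.49 and 59.2% ± 5.46, and after MI 41.4% ± 6.00 and 39.5% ± 4.66 (SD over 3 hearts each). The Has2 share went from 12.0% ± 3.19 after sham surgery to 29.5% ± 2.10 after MI in PKM2fl/fl and from 10.6% ± 2.19 to 26.7% ± 1.57 in PKM2-/- hearts. The Has1 share went from 18.2% ± 3.22 to 29.1% ± 4.10 in PKM2fl/fl hearts, and was 30.2% ± 7.39 and 33.8% ± 3.17 in PKM2-/- hearts, where the sham share was already high. The summed synthase level per kilobase was 92.0 ± 14.2 in sham and 184 ± 10.7 in MI hearts of PKM2fl/fl mice, and 110.2 ± 16.2 and 198 ± 19.5 in PKM2-/- mice. For the sum and for the Has2 and Has3 shares the sham and MI hearts of each genotype did not overlap, and a two-sided exact permutation test gave p = 0.1, the smallest that 3 against 3 allows. For the Has1 share the exact permutation p was 0.1 in PKM2fl/fl and 0.6 in PKM2-/- hearts.

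**Figure D2:**
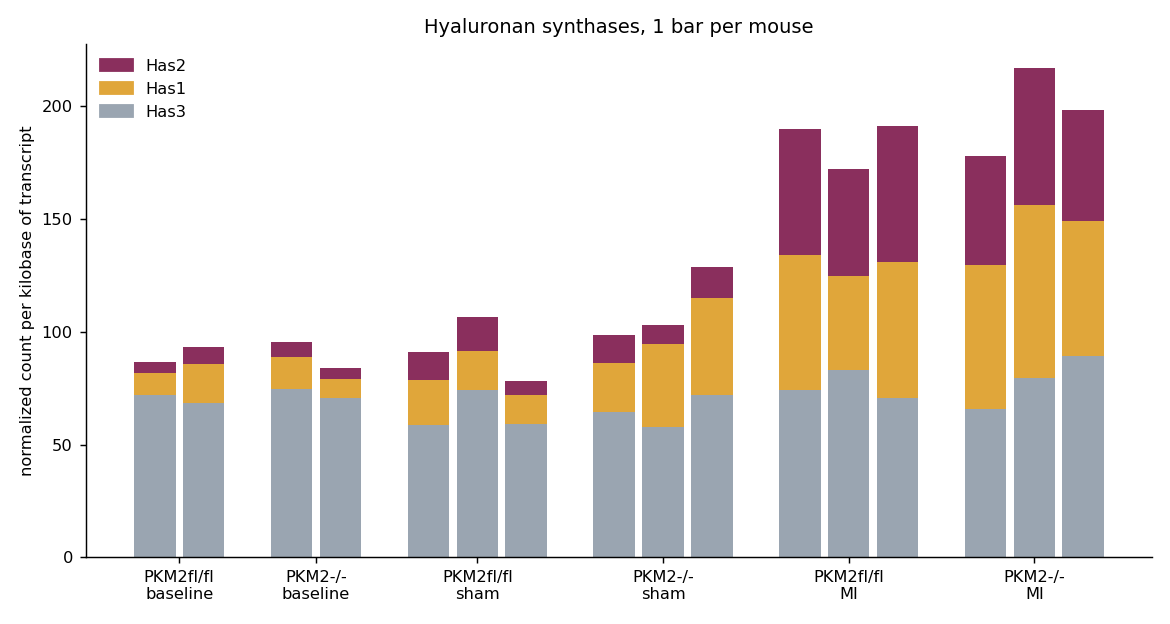
Stacked bars of the 3 hyaluronan synthases in every heart, in normalized counts per kilobase of transcript, grouped by genotype and treatment, with Has3 in grey, Has1 in yellow and Has2 in purple. The grey Has3 part is of similar height in all groups, and the yellow and purple parts make the MI bars higher, with sums of 92.0 in PKM2fl/fl sham and 184 in PKM2fl/fl MI hearts.

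Neither hyaluronidase passed the test after MI. Hyal1, a lysosomal enzyme, had 219 ± 40.9 normalized counts in sham and 213 ± 52.5 in MI hearts of PKM2fl/fl mice, and 235 ± 56.2 and 173 ± 14.5 in PKM2-/- mice (SD, n = 3 each). Its log2 difference was -0.05 (95% interval -0.50 to 0.39, limma adjusted p = 0.852) and -0.42 (-0.87 to 0.03, adjusted p = 0.101). Hyal2, a membrane-anchored enzyme that cuts long chains into intermediate fragments, had 435 ± 28.2 and 442 ± 46.3 in PKM2fl/fl and 501 ± 35.1 and 487 ± 35.7 in PKM2-/- hearts. Its log2 difference was 0.02 (-0.21 to 0.25, adjusted p = 0.895) and -0.04 (-0.27 to 0.19, adjusted p = 0.772). The sham and MI hearts overlapped for both genes in both genotypes.

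Vcan, which encodes the large proteoglycan versican that binds hyaluronan through its amino-terminal domain, had the smallest adjusted p of the members. PKM2fl/fl hearts had 971, 1353 and 737 normalized counts after sham surgery and 4937, 3486 and 5491 after MI. PKM2-/- hearts had 1326, 1320.3 and 1522 after sham surgery and 6299.6, 6481 and 6333 after MI. Every MI heart lay above every sham heart, and the log2 difference was 2.20 in both genotypes (standard error 0.19 in each, limma adjusted p = 6.11e-07 in PKM2fl/fl and 4.24e-07 in PKM2-/- hearts).

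Tnfaip6, which encodes TSG-6, the secreted protein that transfers heavy chains onto hyaluronan, rose by a similar factor in both genotypes. Its counts were 69.9, 65.7 and 37.3 in PKM2fl/fl sham and 212, 147 and 251 in PKM2fl/fl MI hearts. They were 86.8, 88.8 and 76.6 in PKM2-/- sham and 346, 293 and 252 in PKM2-/- MI hearts. Sham and MI hearts did not overlap, and the log2 difference was 1.82 (standard error 0.30, limma adjusted p = 1.53e-04) and 1.80 (standard error 0.30, adjusted p = 1.21e-04). In the promoter windows above, Tnfaip6 was the only printed gene with an AP-1 or a STAT match.

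Hapln1, the link protein that locks versican onto hyaluronan, was low throughout. It had 52.3, 42.1 and 37.3 normalized counts in PKM2fl/fl sham and 23.2, 20.4 and 32.9 in PKM2fl/fl MI hearts, without overlap, and a log2 difference of -0.78 (95% interval -1.63 to 0.08, limma adjusted p = 0.120). PKM2-/- hearts had 43.4, 47.0 and 24.8 after sham surgery and 9.73, 27.9 and 30.3 after MI, with overlap, and a log2 difference of -0.83 (-1.68 to 0.02, adjusted p = 0.0877). Without PKM2-/- sham replicate 3, the PKM2-/- difference was -1.11 (adjusted p = 0.0414), and without PKM2-/- MI replicate 3 it was also -1.11 (adjusted p = 0.0440), so that either omission brought it past both thresholds.

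Hmmr (RHAMM), a hyaluronan-binding protein that also sits on the mitotic spindle, had the largest log2 difference of the members after MI in each genotype. Its counts were 10.99 and 3.98 in PKM2fl/fl and 6.99 and 0 in PKM2-/- baseline hearts, which rest on 20 and 6 reads in all. After sham surgery they were 49.9, 61.6 and 35.8 in PKM2fl/fl and 33.8, 20.9 and 22.7 in PKM2-/- hearts. After MI they were 501, 459.7 and 644 in PKM2fl/fl and 455, 588 and 667 in PKM2-/- hearts. The treatments did not overlap at any step, and MI exceeded sham by a log2 difference of 3.44 (standard error 0.55, limma adjusted p = 1.02e-04) in PKM2fl/fl and 4.43 (standard error 0.55, adjusted p = 7.31e-06) in PKM2-/- hearts. Markers of mitosis moved with it: 9 of 9 mitosis markers tested were called higher in both genotypes, and their summed count was 854 to 1431 in PKM2fl/fl sham against 9026 to 11862 in PKM2fl/fl MI hearts, and 671 to 1121 against 10099.9 to 12589 in PKM2-/- hearts. Over the 16 libraries the log2 level of Hmmr correlated with that of this sum (Pearson r = 0.94, a description, since the libraries share their groups). Of the mitosis list, Kif11 was near 0 (9 libraries at 0) and was not tested.

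**Figure D3:**
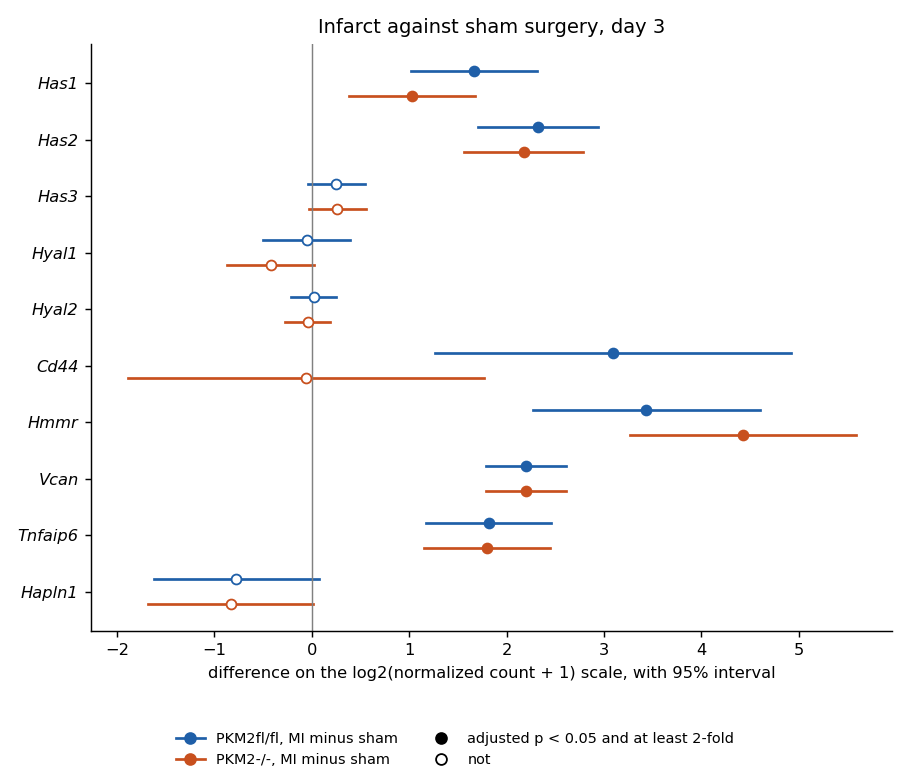
MI minus sham for each member on the log2(normalized count + 1) scale, PKM2fl/fl in blue and PKM2-/- in orange, where lines are 95% intervals without adjustment for multiple tests and filled points passed both thresholds. The genotypes' points differ by less than 1 log2 unit in 9 members, and Cd44 is the member whose points lie farthest apart, at 3.09 and -0.06.

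Cd44, the main hyaluronan receptor of leukocytes and stromal cells, needs the rRNA content of the libraries beside it. Its counts were 2178 and 4265 in PKM2fl/fl and 64037 and 65838 in PKM2-/- baseline hearts. After sham surgery they were 7875, 1795 and 12726 in PKM2fl/fl and 35386, 34438 and 96416 in PKM2-/- hearts. After MI they were 105217, 10644 and 99615 in PKM2fl/fl and 17747, 65323 and 88669 in PKM2-/- hearts. Within the PKM2fl/fl MI group the values thus differed by nearly 10-fold, and PKM2fl/fl MI replicate 2 lay below PKM2fl/fl sham replicate 3. The log2 difference of MI and sham hearts was 3.09 (standard error 0.86, limma adjusted p = 0.00725) in PKM2fl/fl and -0.06 (standard error 0.86, adjusted p = 0.955) in PKM2-/- hearts. The PKM2fl/fl value was 2.27 without PKM2fl/fl sham replicate 2 (adjusted p = 0.0447), 3.68 without PKM2fl/fl sham replicate 3 and 4.18 without PKM2fl/fl MI replicate 2 (adjusted p = 3.27e-04).

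The order of the libraries by Cd44 was almost that of their order by CT010467.1, the rRNA locus. Over the 16 libraries the log2 levels of both had a Pearson correlation of 0.99 and a Spearman correlation of 0.99 (a description; the libraries share their groups), and all but 3 libraries held the same rank in both. The 3 libraries with CT010467.1 between 428195 and 490116 normalized counts had similar Cd44 whatever their group: 10644 in PKM2fl/fl MI replicate 2, 12726 in PKM2fl/fl sham replicate 3 and 17747 in PKM2-/- MI replicate 1. With log2 CT010467.1 as a covariate, the Cd44 difference after MI in PKM2fl/fl hearts was -0.06 (limma adjusted p = 0.828) in place of 3.09. The other 9 members had correlations with CT010467.1 between 0.02 and 0.51, and with the covariate the 5 other genes called in PKM2fl/fl hearts (1.35 for Has1, 2.30 for Has2, 2.14 for Vcan, 3.44 for Hmmr and 1.79 for Tnfaip6) and the 5 called in PKM2-/- hearts all kept their calls. Whether the Cd44 reads came from Cd44 transcripts was not tested.

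**Figure D4:**
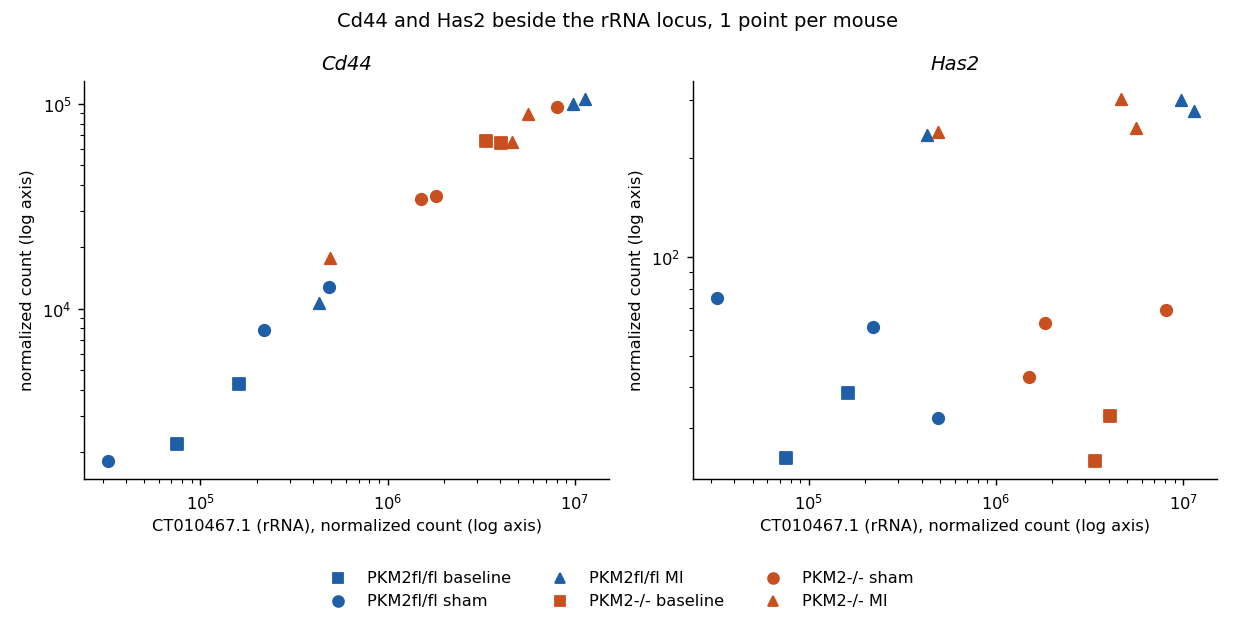
Cd44 (left) and Has2 (right) against the rRNA locus CT010467.1, in normalized counts on log axes, 1 point per mouse, with colour for genotype and shape for treatment. The 16 Cd44 points follow 1 line from 1795 to 105217 regardless of shape and colour, whereas the Has2 points fall into an upper band of 6 MI hearts and a lower band of 10 other hearts, both of which span low and high rRNA levels.

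The response to MI was next compared between the genotypes. The interaction of genotype and MI was called for 0 of the 10 members, and 1 member had an unadjusted p under 0.05 (Cd44, log2 difference of differences -3.16, limma adjusted p = 0.540, and 0.18 with the CT010467.1 covariate). Over all genes 0% were called by limma (1703 genes at an unadjusted p under 0.05, 0 by edgeR, 0 by limma-voom and 36 by DESeq2). Among the members other than Cd44 the interaction ran from -0.64 in Has1 (95% interval -1.56 to 0.28) to 0.99 in Hmmr (-0.65 to 2.63). For Vcan it was 0.00 (-0.59 to 0.58) and for Tnfaip6 -0.02 (-0.93 to 0.90), intervals that lie under a 2-fold difference in either direction, and for Has2 it was -0.15 (-1.02 to 0.72).

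Direct comparison of the genotypes gave 0 called members in each condition. At baseline 0 of 9 members were called (Cd44 not tested), against 0.00972% of all genes. After sham surgery 0 of 10 were called against 0.00486%, and after MI 0 of 10 against 0.413%. At an unadjusted p under 0.05 there were 1 of 9, 3 of 10 and 1 of 10 members, and 748, 2047 and 3492 of all 20576 genes. edgeR and limma-voom also called 0 members in these comparisons. DESeq2 called 1, Cd44 after sham surgery (log2 difference 2.89, adjusted p = 0.0163), which total read scaling called as well (2.79, limma adjusted p = 3.01e-04). Cd44 at baseline was left out of the counts of every method. The paper lists Cd44 among the genes it found to differ between the unoperated hearts.

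The largest genotype values were those of Cd44. PKM2-/- exceeded PKM2fl/fl hearts by a log2 difference of 4.41 at baseline (not tested) and of 3.12 after sham surgery (limma adjusted p = 0.195), and with the CT010467.1 covariate these were 0.92 and 0.21. CT010467.1 itself had log2 differences of 5.07 and 4.22 in the same comparisons. After MI the Cd44 difference was -0.04 (95% interval -1.87 to 1.79).

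Has1, Vcan and Tnfaip6 had higher mean levels in operated PKM2-/- than in operated PKM2fl/fl hearts, but no difference passed the test. After sham surgery all 3 PKM2-/- hearts had more Has1 than any PKM2fl/fl heart, a log2 difference of 0.96 (95% interval 0.309 to 1.604, limma adjusted p = 0.261). After MI the Has1 values of the genotypes overlapped, with a difference of 0.32 (-0.33 to 0.96, adjusted p = 0.643). For Vcan the difference was 0.49 after sham surgery (0.07 to 0.90, adjusted p = 0.409), with overlap, and 0.48 after MI (0.07 to 0.90, adjusted p = 0.218), without overlap. Tnfaip6 was 0.59 (-0.06 to 1.23, adjusted p = 0.556) and 0.57 (-0.07 to 1.21, adjusted p = 0.356), without overlap in either condition. Hmmr had lower mean values in PKM2-/- hearts at baseline (-1.45, adjusted p = 1.00, with overlap) and after sham surgery (-0.90, adjusted p = 0.640, without overlap), and a difference of 0.09 after MI. The baseline Hmmr value rests on 20 reads against 6, and without PKM2-/- baseline replicate 1, which leaves the library at 0 alone, it was -2.95 (adjusted p = 0.0233), whereas without replicate 2, the library at 0, it turned to 0.049 (adjusted p = 1.00). For Has2, Has3, Hyal1 and Hyal2 the differences ran from -0.28 to 0.20 over the 3 conditions, and only the 0.20 of Hyal2 after sham surgery came from groups that did not overlap (adjusted p = 0.574). How many of all genes separate the genotypes in this way was not counted, so these separations are a description only.

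**Figure D5:**
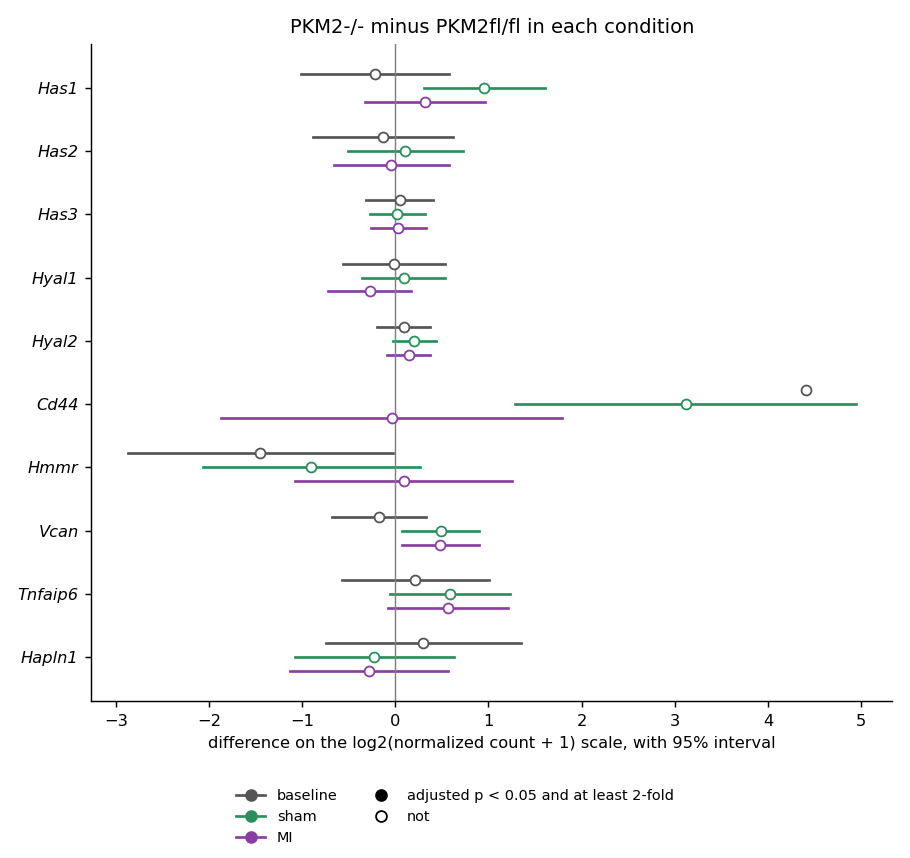
PKM2-/- minus PKM2fl/fl for each member at baseline (grey), after sham surgery (green) and after MI (purple), on the log2(normalized count + 1) scale with unadjusted 95% intervals, where open points did not pass both thresholds. No point is filled, Cd44 at baseline is drawn without an interval because it was not tested, and the Cd44 points at 4.41 and 3.12 lie far from the rest.

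Sham surgery itself was compared with no surgery, taking both genotypes together. Of the 10 members 2 were called higher and 0 lower, against 2.06% and 0.209% of all genes. These were Hmmr (log2 difference 2.94, standard error 0.43, limma adjusted p = 0.00122) and Tnfaip6 (1.94, standard error 0.24, adjusted p = 3.49e-04). The Hmmr value was 2.19 without PKM2-/- baseline replicate 2 (the library at 0), 3.69 without PKM2-/- baseline replicate 1 and 3.87 with a pseudocount of 0.1, and passed both thresholds in each. Tnfaip6 had 10.99 to 23.3 normalized counts in the 4 baseline hearts and 37.3 to 88.8 in the 6 sham hearts, without overlap. Has1 (0.92, adjusted p = 0.0312), Has2 (0.89, adjusted p = 0.0292), Vcan (0.72, adjusted p = 0.0104) and Hyal2 (0.33, adjusted p = 0.0292) had an adjusted p under 0.05 and less than a 2-fold change. From baseline to sham, mean Has1 went from 28.1 to 35.0 in PKM2fl/fl and from 23.7 to 70.5 in PKM2-/- hearts. Mean Vcan went from 754 to 1020 and from 674 to 1390, and mean Has2 from 31.4 to 56.1 and from 28.2 to 58.3. Whether the genotypes differed in this step was not tested. Has1 and Has2 both passed the fold threshold without PKM2fl/fl baseline replicate 2 (1.12 and 1.05) or without PKM2fl/fl sham replicate 3 (1.02 and 1.06), and Has1 alone did without PKM2-/- baseline replicate 1 (1.08) or PKM2-/- sham replicate 1 (1.07). Hapln1 was 0.92 (adjusted p = 0.104), Has3 -0.16, Hyal1 0.01 and Cd44 0.24 (adjusted p = 0.906). In the same comparison 5 of 5 neutrophil markers tested, 6 of 9 mitosis markers and 1 of 6 macrophage markers were called higher, and their part in the result was not tested. Since MI hearts were also operated on, their values against sham leave out what both operations share.

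Ordered by mean level, Has1, Has2, Hmmr, Vcan and Tnfaip6 ran baseline, sham, MI in both genotypes. For Hmmr every neighbouring pair of treatments was separate in both genotypes. For Has1, Has2 and Vcan the PKM2fl/fl baseline and sham hearts overlapped, and all MI hearts lay above them. Between the genotypes, the neighbours within a treatment overlapped for Has2 in all 3 treatments. Levels per kilobase, averaged over PKM2fl/fl baseline hearts, began among the 9 members other than Cd44 with Hyal2 (171 ± 6.21), followed by Hyal1 (74.5 ± 10.4), Has3 (70.4 ± 2.48) and Vcan (59.8 ± 5.56), and those of Hyal1 and Has3 differed by less than their spread. Cd44, whose reads followed CT010467.1, was left out of this order. After MI Vcan (368 ± 82.1) was above Hyal2 (211 ± 22.1), Hmmr (134 ± 24.3) and Tnfaip6 (117 ± 30.3), and Hapln1 (4.32 ± 1.12) was the lowest. Hmmr and Tnfaip6 did not differ beyond their spread there, and no test was run between genes.

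The other genes of hyaluronan metabolism, a list of 40 chosen by known function, were read in the same fit, and 31 passed the filter on low values. After MI 12 were called higher, 1 lower and 18 not in PKM2fl/fl hearts, against 12.4% of all genes higher and 11.1% lower. In PKM2-/- hearts 10 were called higher, 2 lower and 19 not, against 14.5% and 14.3%. The median log2 difference of the 31 was 0.77 and 0.76. Between the genotypes 0 of 31 were called at baseline, after sham surgery or after MI, against 0.00972%, 0.00486% and 0.413% of all genes. Between sham and baseline hearts 5 of 31 were called higher and 0 lower, against 2.06% and 0.209%.

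Precursor supply was represented by Ugdh, the enzyme that makes UDP-glucuronic acid, the only 1 of 7 genes of that role called in either genotype. It went from 387 ± 75.1 to 951 ± 225 normalized counts in PKM2fl/fl hearts (log2 difference 1.28, limma adjusted p = 1.28e-05) and from 433 ± 27.9 to 1299 ± 39.8 in PKM2-/- hearts (1.59, adjusted p = 1.29e-06; SD, n = 3 each). On the side of breakdown the hyaluronidases Hyal4 and Spam1 were under the filter, and the called genes were of other enzyme families. The hyaluronidase Hyal3 was lower by -0.48 and -0.47 (limma adjusted p = 0.0435 and 0.0411), which stayed under 2-fold. Cemip, which encodes a protein that binds and depolymerizes hyaluronan, had 14.1, 26.7 and 10.8 in PKM2fl/fl sham and 512, 421 and 342 in PKM2fl/fl MI hearts (4.63, adjusted p = 5.20e-06). In PKM2-/- hearts it had 9.65, 10.4 and 6.47 after sham surgery and 34.05, 205 and 137 after MI (3.37, adjusted p = 5.33e-05). After MI all 3 PKM2-/- hearts thus had less Cemip than any PKM2fl/fl heart, a log2 difference of -2.07 that did not pass the test (adjusted p = 0.0650). Cemip2, a transmembrane hyaluronidase, had an adjusted p under 0.05 and less than a 2-fold change in both genotypes (0.73 and 0.66). Gusb, the lysosomal beta-glucuronidase, rose by 1.75 and 1.66 on the log2 scale (adjusted p = 2.91e-07 and 3.23e-07). The 14 genes named from the list had Pearson correlations with CT010467.1 between -0.32 and 0.61 over the 16 libraries (a description; the libraries share their groups).

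Among the 6 receptors 3 were called higher and 1 lower in each genotype. Stab1, a scavenger receptor of macrophages and sinusoidal endothelium, rose by 1.54 and 1.49 on the log2 scale (limma adjusted p = 1.15e-06 and 9.73e-07) and Layn (layilin) by 1.08 and 1.21 (adjusted p = 5.77e-05 and 1.48e-05). Stab2, a hyaluronan clearance receptor, fell from 78.9 ± 15.9 to 35.0 ± 4.02 normalized counts in PKM2fl/fl and from 91.8 ± 19.0 to 38.2 ± 12.5 in PKM2-/- hearts (adjusted p = 0.00177 and 5.52e-04). Lyve1, a receptor of lymphatic endothelium and resident macrophages, was called between sham and baseline hearts (1.09, adjusted p = 7.70e-04), and its MI values of -0.61 and -0.53 (adjusted p = 0.0143 and 0.0263) stayed under 2-fold. From the other roles of the list, Gfpt2 (1.04, adjusted p = 0.00189), Cemip (1.60, adjusted p = 0.0285), Ptx3 (1.94, adjusted p = 0.0180) and Adamts4 (1.79, adjusted p = 0.00385) were also called higher after sham surgery than at baseline.

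The partners of Tnfaip6 and Vcan were also in the list. Ptx3 (pentraxin 3), which joins the cross-linked matrix made by TSG-6, rose by 2.95 and 2.94 on the log2 scale (limma adjusted p = 5.51e-04 and 4.41e-04), with 247, 155 and 228 normalized counts in PKM2fl/fl MI and 964, 535 and 850 in PKM2-/- MI hearts. That genotype difference of 1.88 did not pass the test (adjusted p = 0.114), and the PKM2-/- sham hearts ranged from 27.3 to 250.3. Itih4, of the inter-alpha-inhibitor heavy chain family, rose by 1.81 and 2.00 (adjusted p = 1.70e-05 and 4.56e-06). It was the only gene of that family called. Itih1 and Itih3 were under the filter on low values. Itih2 (0.83 and 0.87, adjusted p = 0.0730 and 0.0561) and Itih5 (-0.13 and -0.38, adjusted p = 0.529 and 0.0630) were not called. Hapln3, another link protein, was called lower in PKM2-/- hearts (-1.11, adjusted p = 0.0332, with -0.82 in PKM2fl/fl hearts, adjusted p = 0.114), and its genotype difference after MI was -0.04. Adamts4, a protease that cuts versican and aggrecan, rose by 4.17 and 3.68 (adjusted p = 1.37e-06 and 2.58e-06), and 4 of 5 such proteases were not called. Acan (aggrecan), itself low, rose by 2.06 and 1.55 (adjusted p = 0.00871 and 0.0351).

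The 5 members called in both genotypes varied together over the 16 libraries, with Pearson correlations of their log2 levels from 0.85 (Has1 and Hmmr) to 0.97 (Has2 and Vcan). These values include the shared separation of MI, sham and baseline. The correlations of the deviations from the group means had a median of 0.45 over the 10 pairs and ran from -0.13 (Vcan and Hmmr) to 0.72 (Has2 and Tnfaip6). The genes most alike to each member among the other 20575 tested, by Pearson correlation of log2 levels over 16 libraries, differed from member to member. They were Tmem45a (r = 0.99), G6pdx and Cd84 for Has2, Ccdc6 (0.97), Sbno2 and Eif3a for Has1, Thbs1 (0.99), Anxa2 and Lrp1 for Vcan, and Csf3r (0.98), Ms4a6b and Gda for Tnfaip6. For Hmmr they were Birc5 (0.99), Gm46224 and Brca1, of which Birc5 is a gene of cell division. Cd44 was most like Mir6236 (0.99), Gphn and Camk1d, of which Mir6236 is one of the rRNA-related loci. The likeness was weaker for Hyal2 (Cebpd 0.91, Cdkn1a, Ace), Hyal1 (Gm3815 0.90, Ankrd13b, Gm16343), Has3 (Kctd7 0.88, Gm21370, Hrh2) and Hapln1 (Chrdl1 0.85, Tbc1d5, Tmem243).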

How the data were processed

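RNA from left ventricles was sequenced after rRNA depletion, 1 library per mouse. Per the paper's methods and the submitters' processing notes, the authors trimmed the reads and used HISAT2 (genome build mm10), featureCounts and DESeq2 for alignment, counting and normalization. The strand setting is not given in the sources used here. The deposited signal values are reads per gene divided by a size factor per library, with 20623769 to 71855101 reads per library. Multiplied back, 100% of non-zero values were whole within 0.01 reads. The deposited table also holds the authors' baseline comparison (log2 fold changes, a Wald score, p-values and adjusted p-values), which was not used.

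Values were tested on the log2(normalized count + 1) scale with limma 3.58.1 (trend, R 4.3.3) in 1 fit of 6 group means over 16 libraries, for 20576 genes with a mean of at least 10, with Benjamini-Hochberg adjustment over all of them. Fold changes on this scale understate those of low genes. p-values measure the spread among these mice. A call needed an adjusted p under 0.05 and a 2-fold change. The design had planned this test for normalized values, and count tests of the recovered reads are alternatives. edgeR 4.0.16 called 5305 and 6470 genes after MI in PKM2fl/fl and PKM2-/- hearts. DESeq2 1.42.0, limma-voom, other size factors, filters, pseudocounts, a replicate block, a CT010467.1 covariate and omission of each library were also run. The scripts were checked on simulated data. Named genes were all members, up to 3 called genes per role of the wider list by adjusted p plus Lyve1, Ptx3, Cemip and Cemip2, and the 3 genes most correlated with each member. A gene of the wider list that this rule names is not reported here. The members and lists were chosen with earlier results of these data known. Promoter windows came from RefSeq (GRCm38.p6). Python 3.11.15, pandas 2.3.3, numpy 2.4.6 and matplotlib 3.10.9 were used.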

Additional observations from a re-analysis of the deposited data

How the results depend on the processing

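The members called after MI were the same 6 genes in PKM2fl/fl hearts under each alternative but the CT010467.1 covariate, which gave 5 (without Cd44), and 6 with any library left out. In PKM2-/- hearts there were 5, 4 in edgeR and DESeq2 (without Has1), and 4 to 6 with a library left out. Called members were 0 to 1 for genotype at baseline with a library left out (Hmmr, without PKM2-/- baseline replicate 1), 1 after sham surgery with scaling to total reads and with DESeq2 (Cd44), 0 after MI and for the interaction under every alternative run, and 2 to 4 for sham against baseline with a library left out. Of Has1, Has2, Vcan, Hmmr and Tnfaip6 after MI, none changed sign under any alternative, and Has1 in PKM2-/- hearts was the only 1 to lose a call.

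Of the differences that changed sign, those over 0.5 in size were Cd44 after MI in PKM2fl/fl hearts (3.09) and for the interaction (-3.16), both with the CT010467.1 covariate, Hmmr for genotype at baseline (-1.45) without PKM2-/- baseline replicate 2, and Has1 for the interaction (-0.64) with scaling to total reads, and no value of the opposite sign passed both thresholds. With scaling to total reads, log2 values of the opposite sign were, for MI against sham in PKM2fl/fl hearts Hyal2 -0.16, for MI against sham in PKM2-/- hearts Hyal1 0.091, Hyal2 0.47 and Cd44 0.45, for genotype at baseline Has3 -0.54, Hyal2 -0.50, Tnfaip6 -0.34 and Hapln1 -0.26, for genotype after sham surgery Has2 -0.21, Has3 -0.30, Hyal1 -0.23 and Hyal2 -0.12, for genotype after MI Has2 0.32, Hyal1 0.089, Cd44 0.33 and Hapln1 0.062, for the interaction Has1 0.043, Has2 0.53, Hyal1 0.32, Hyal2 0.63, Vcan 0.69, Tnfaip6 0.67 and Hapln1 0.60. With the CT010467.1 covariate, log2 values of the opposite sign were, for MI against sham in PKM2fl/fl hearts Cd44 -0.065, for MI against sham in PKM2-/- hearts Cd44 0.12, for genotype at baseline Hapln1 -0.22, for genotype after sham surgery Hyal1 -0.12, for genotype after MI Cd44 0.40, for the interaction Has3 -0.0086, Cd44 0.18, Vcan 0.058, Tnfaip6 0.0078 and Hapln1 0.44. With edgeR, log2 values of the opposite sign were, for MI against sham in PKM2-/- hearts Cd44 0.040, for the interaction Vcan 0.011, Tnfaip6 0.0031 and Hapln1 0.0054. With DESeq2, log2 values of the opposite sign were, for MI against sham in PKM2-/- hearts Cd44 0.047, for the interaction Vcan 0.0090. With TMM size factors, log2 values of the opposite sign were, for genotype after sham surgery Has3 -0.0019, for the interaction Vcan 0.035 and Tnfaip6 0.022, for sham against baseline Hyal1 -0.0041. With limma-voom, log2 values of the opposite sign were, for the interaction Has3 -0.031. With the replicate block, log2 values of the opposite sign were, for sham against baseline Cd44 -0.27. Scaling to total reads moved the median of all genes by -0.17 for MI against sham in PKM2fl/fl, 0.52 in PKM2-/-, -0.59 for genotype at baseline, -0.33 after sham surgery, 0.36 after MI and 0.68 for the interaction, and gave 2050 higher and 2851 lower genes after MI in PKM2fl/fl and 5500 and 1515 in PKM2-/- hearts, in place of 2553 and 2279, and 2974 and 2949. With a library left out, the results that changed sign ranged as follows. MI against sham in PKM2fl/fl hearts gave Hyal1 -0.22 to 0.15 and Hyal2 -0.062 to 0.083. MI against sham in PKM2-/- hearts gave Cd44 -0.52 to 0.64. Genotype at baseline gave Has1 -0.61 to 0.17, Has2 -0.45 to 0.19, Hyal1 -0.15 to 0.13, Hyal2 -0.00094 to 0.18, Vcan -0.37 to 0.028, Hmmr -2.95 to 0.049, Tnfaip6 -0.27 to 0.70 and Hapln1 -0.00095 to 0.61. Genotype after sham surgery gave Has2 -0.24 to 0.35, Has3 -0.059 to 0.13, Hyal1 -0.084 to 0.26 and Hapln1 -0.39 to 0.055. Genotype after MI gave Has2 -0.15 to 0.034, Has3 -0.067 to 0.15, Cd44 -1.13 to 0.66, Hmmr -0.033 to 0.24 and Hapln1 -0.56 to 0.21. The interaction gave Has2 -0.40 to 0.19, Has3 -0.097 to 0.13, Hyal2 -0.12 to 0.021, Vcan -0.23 to 0.21, Tnfaip6 -0.23 to 0.27 and Hapln1 -0.34 to 0.44. Sham against baseline gave Hyal1 -0.082 to 0.089 and Cd44 -0.052 to 0.65. The cause of these changes was not tested.

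Over all genes, the 2 called for genotype at baseline became 9 with a pseudocount of 0.1, 44 with scaling to total reads, 11 in DESeq2, 41 with the 2 groups alone, 1 in edgeR and with the replicate block, and 0 without rRNA-related loci or with the covariate. The 1 called after sham surgery became 113 with scaling to total reads, 106 in DESeq2, 9 with the groups alone and 0 with no filter, the replicate block or the covariate. The 85 called after MI became 276 in DESeq2, 46 with the replicate block and 6 with the groups alone, and the 0 called for the interaction became 54 with scaling to total reads and 36 in DESeq2. The 466 called for sham against baseline became 225 in limma-voom. With a library left out, the counts ran from 0 to 40 at baseline, 0 to 49 after sham surgery, 11 to 632 after MI and 0 to 226 for the interaction, the last 2 maxima without PKM2fl/fl MI replicate 3. The replicate block left every count of called members as it was. Libraries with the same replicate number did not deviate together (correlations of -0.196 to 0.126 over 36 pairs). This gave no sign that the numbers pair the mice. It cannot show that they do not, because deviations from the mean of 2 or 3 libraries are not independent.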
